A study of Mus musculus with 36 samples.

Results

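The replication timing (RT) map of the CH12 line was compared with a map of mouse embryonic fibroblasts (MEFs), bin by bin, over the 19 autosomes. Each map gave every 20 kb bin of the mouse genome (mm9) 1 of 3 states, early (E), middle (M) or late (L), named for the stretch of S phase in which its DNA was copied. Bins made wholly of unknown bases were dropped, which removed 3785 of 123624 autosomal bins and left 119839 for the comparison, of 131957 bins when the X chromosome and the unknown bins were counted too.

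CH12 is a mouse B lymphoma line that can be stimulated to switch antibody class, and the cells here were cultured in RPMI with IL4/CD40/TGF beta stimulation and infected with a lentivirus carrying a hairpin against LacZ (shLacZ), the control for hairpin expression. Their map was the only control map of the line, merged from 4 libraries, an early S and a late S fraction from each of 2 replicates, in which newly made DNA carried BrdU. The series held 36 libraries in 7 groups, with CH12 cells that received shLacZ or shMcm6, the same pair in a Rif1KO line, and primary B cells that were WT, Rif1KO_Het or Rif1KO_double. The other map was named only for WT MEFs, and the labels tie it to no library. The study's list of datasets credits MEF Repli-seq to an earlier public dataset, and the preparation of those cells and the processing of their reads are not given in the sources used here. Cell type, the separate origin of the MEF data and its processing therefore cannot be told apart in any difference given here. With 1 merged map a side there was no spread between replicates, so no difference was tested. The 95% Wilson intervals below reflect no more than how many bins or domains were counted, and adjacent bins depend on each other. These libraries hold no RNA, so the identity of neither cell type was checked here against the levels of its marker genes.

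In mammalian cells the genome is copied in domains that fire together, and gene-rich, GC-rich and active chromatin tends to be copied early while gene-poor chromatin at the nuclear periphery tends to be copied late. The program differs between cell types, and domains that hold lineage genes often move earlier in the lineage that uses them. B cells rely on a network of transcription factors and on antigen receptor loci that are assembled from gene segments, whereas fibroblasts are mesenchymal cells that secrete collagen and other extracellular matrix.

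More of the CH12 map than of the MEF map was labelled late. States are labels within each map, and timing values on a common scale were not compared. L bins made up 50.0% (49.7 to 50.3) of the CH12 map and 29.1% (28.8 to 29.3) of the MEF map. E bins made up 24.4% (24.2 to 24.7) in CH12 cells and 33.8% (33.5 to 34.0) in MEFs, and M bins 25.6% (25.3 to 25.8) and 37.1% (36.9 to 37.4). In WT primary B cells, whose map comes from the same study and was merged from 4 libraries, the shares were 29.9% E, 31.8% M and 38.3% L, so the primary B map lay between the others in all 3 states. The direction held on every chromosome. The share of E bins was higher in MEFs on all 19 autosomes, by 1.903 percentage points on chromosome 12 up to 14.7 points on chromosome 13, and the share of L bins was lower on all 19, by 14.3 points on chromosome 11 up to 28.5 points on chromosome 15.

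**Figure D1:**
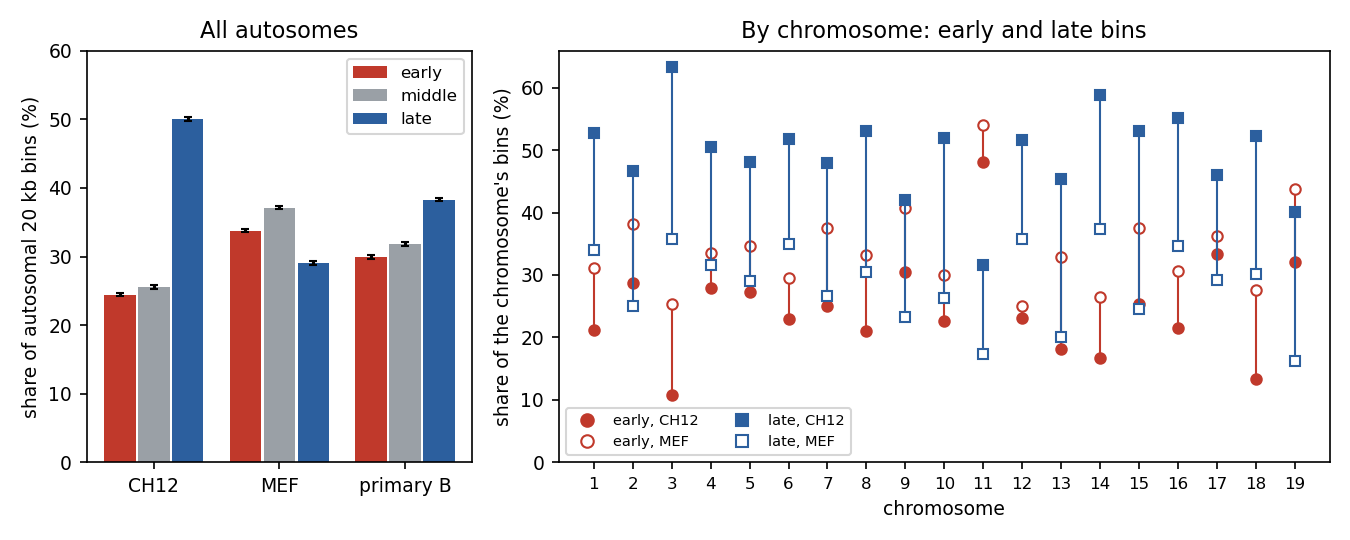
Left, share of autosomal 20 kb bins in each state in the CH12, MEF and WT primary B maps, with 95% Wilson intervals as error bars. Right, share of each chromosome's bins that were early (circles) or late (squares) in CH12 cells (filled) and MEFs (open). Late bins made up 50.0% in CH12 cells and 29.1% in MEFs, and on every chromosome the open circle lies above the filled circle and the open square below the filled square.

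Domains, that is, runs of bins in 1 state, differed in number as well. In CH12 cells there were 537 E domains (median length 680 kb), 1241 M domains (380 kb) and 690 L domains (1100 kb). In MEFs there were 567 E domains (960 kb), 1042 M domains (620 kb) and 461 L domains (960 kb). MEFs thus had longer E and M domains and fewer L domains than CH12 cells. In neither map did an E domain touch an L domain directly, which for MEFs was part of how the states were named. Base composition followed the states in both maps, with GC contents of 45.8%, 42.9% and 39.5% in the E, M and L bins of CH12 cells and of 45.3%, 41.6% and 38.4% in those of MEFs. The density of protein-coding gene starts was also ordered, at 18.9, 9.42 and 3.803 per Mb in CH12 cells and 16.2, 6.72 and 3.37 per Mb in MEFs. In MEFs this order too was part of the naming, because the 3 state numbers of that map run in a different order from those of CH12 and carry no names.

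The longest CH12 E domain spanned 8280 kb (chr4:131480001-139760000) and held 166 protein-coding gene starts. It was nearly all early in MEFs too, with 397 of 414 bins E and 17 M. The longest CH12 L domain, of 13300 kb (chr16:65040001-78340000), held 23 gene starts. It was less uniform in MEFs, where 435 of 664 bins were L and 229 were M. The longest MEF E domain spanned 12100 kb (chr9:55640001-67740000), and in CH12 cells 491 of its 605 bins were E, 96 M and 18 L. The longest MEF L domain, of 9880 kb (chr4:70340001-80220000), was L in CH12 cells in 488 of 494 bins.

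In all, 74314 of 119839 bins (62.0%, 61.7 to 62.3) had the same state in both maps, which is a Cohen kappa of 0.439, where 0 is the agreement that the state shares alone would give and 1 is identity. Another 39035 bins (32.6%) were in an earlier state in MEFs and 6490 (5.42%) were in an earlier state in CH12 cells. Of the 45525 bins that differed, 85.7% (85.4 to 86.1) were therefore earlier in MEFs. The state totals by themselves require a net shift this way, since MEFs had more E and fewer L bins, on each chromosome too. By chromosome the share of discordant bins that were earlier in MEFs ran from 75.7% on chromosome 17 to 95.5% on chromosome 8. Agreement ran from 52.0% on chromosome 13 to 70.7% on chromosome 11, and kappa from 0.280 on chromosome 3 to 0.539 on chromosome 4.

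The states were not exchanged evenly. CH12 E bins were rarely anything but early in MEFs, where 85.1% were E, 14.3% M and 0.550% L. Late chromatin kept its state less often. Of CH12 L bins, 54.4% were L in MEFs, while 39.2% were M and 6.43% were E. The state totals limit this contrast. MEFs had 34853 L bins against 59905 in CH12 cells, so CH12 L bins could not all be L in MEFs. For the 29295 CH12 E bins, the 40478 MEF E bins set no such limit. Seen from the fibroblast side, 93.4% of MEF L bins were also L in CH12 cells, so MEF late chromatin was close to a subset of CH12 late chromatin. The largest discordant class was L in CH12 cells and M in MEFs, with 23492 bins, followed by M in CH12 cells and E in MEFs, with 11692. M bins of CH12 cells lay 54.9% in M, 38.2% in E and 6.95% in L of MEFs.

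**Figure D2:**
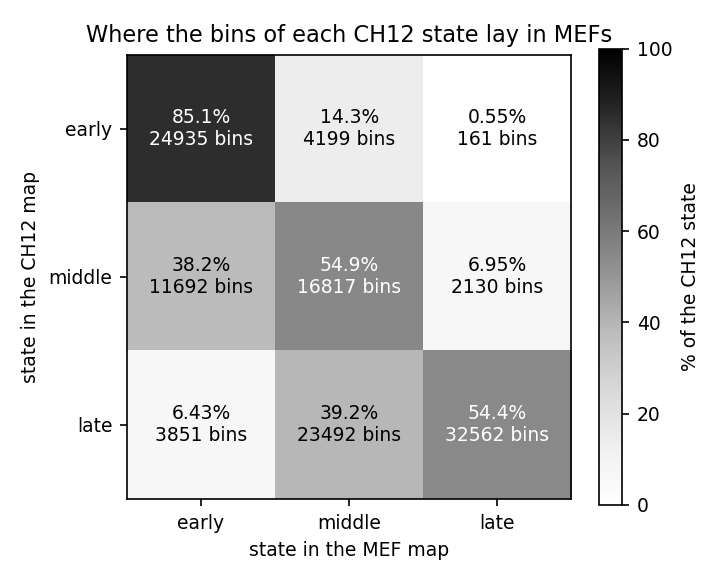
Bins by their state in CH12 cells (rows) and MEFs (columns). Shading and percentages give the share of each CH12 state, and counts give bins of 20 kb. Early CH12 bins were early in MEFs in 85.1% of cases, whereas late CH12 bins were late in MEFs in 54.4%. The smaller number of late bins in MEFs limits the second share.

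Bins that were late in both maps had the lowest GC content (38.3%) and the fewest gene starts (3.14 per Mb), and bins early in both had the highest, at 46.2% and 20.3 per Mb. Bins that were L in CH12 cells lay in order between these, with 40.7% GC where they were M in MEFs and 42.5% where they were E. The genes that start in the L-to-E bins were long, with a median length of 33.8 kb, against 15.5 kb for all protein-coding genes. Genes M in CH12 cells and E in MEFs had a median of 24.5 kb, and genes late in both maps 2.86 kb. The 2046 genes late in both included 648 olfactory and 166 vomeronasal receptor genes, from families with median lengths of 0.963 and 1.088 kb. The few bins that were E in CH12 cells and L in MEFs had 39.8% GC and 4.04 gene starts per Mb.

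The WT primary B map had no part in choosing these bins. Of the bins L in CH12 cells and E in MEFs, 62.7% were M in primary B cells, 30.6% were L and 6.73% were E. Of the 161 bins E in CH12 cells and L in MEFs, 120 (74.5%) were M in primary B cells, 41 (25.5%) were E and 0 were L, a count of 0 in a set that comes from few domains. The bins late in CH12 cells and M in MEFs were L in primary B cells in 56.6% of cases and M in 41.5%.

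Complete switches between E and L were examined as runs of adjacent bins. Early in CH12 cells and late in MEFs there were 14 runs with 161 bins, 0.134% (0.115 to 0.157) of all bins, on 10 chromosomes. Their median length was 180 kb and the longest was 680 kb. In the other direction, late in CH12 cells and early in MEFs, there were 236 runs with 3851 bins, 3.21% (3.12 to 3.31) of all bins, on all 19 autosomes. Their median length was 260 kb (interquartile range 120 to 480) and the longest was 1180 kb. The CH12 profile was smoothed over 300 kb before its states were called, and 5 runs of the first kind and 105 of the second were at least that long. When all bins that lay within 100 kb of where any domain ended, in either map, were left out, 6 runs with 55 bins remained in the first direction and 140 runs with 1975 bins in the second.

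**Figure D3:**
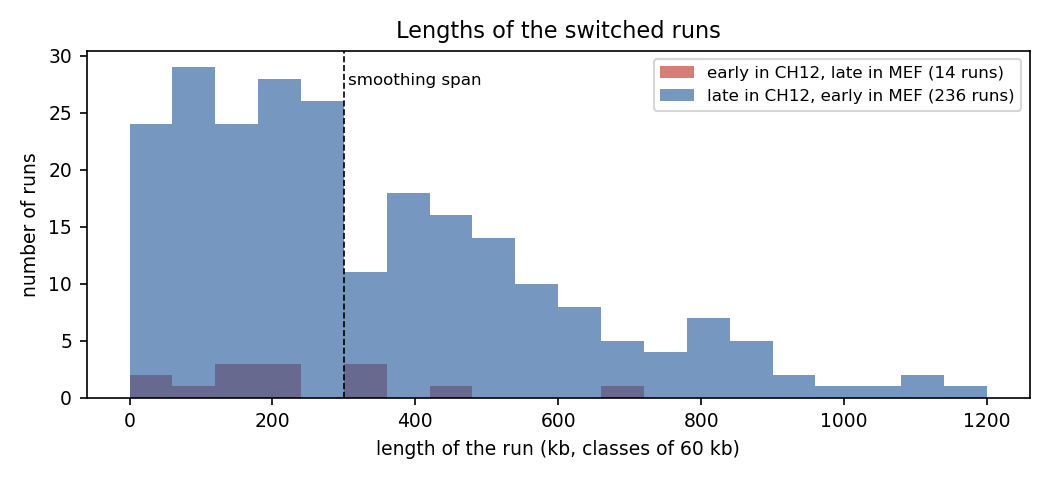
Lengths of the runs of adjacent bins that were early in CH12 cells and late in MEFs (14 runs) or late in CH12 cells and early in MEFs (236 runs), in classes of 60 kb. The dashed line marks the 300 kb smoothing span of the CH12 profile. The longest run of the first kind was 680 kb and of the second 1180 kb.

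The chromatin that was early in CH12 cells and late in MEFs was led by the immunoglobulin kappa light chain locus on chromosome 6, which supplies the variable segments of most mouse antibody light chains. It held 64 of the 161 bins (39.8%), in 3 runs. The longest run of all covered chr6:68620001-69300000 (680 kb, 34 bins) with 19 immunoglobulin segments, the second chr6:69460001-69880000 (420 kb, 21 bins) with 14 segments, and the last of these was 180 kb long with 3 segments. The 19 leave out Igkv4-71 and Igkv4-69, which lay in the same run but are annotated as protein-coding. Each run was a whole CH12 E domain, and all 3 runs lay inside a single MEF L domain of 2960 kb, chr6:67540001-70500000. Over its 148 bins CH12 cells had 64 E and 84 M bins, primary B cells 8 E and 140 M, and neither B cell map had an L bin. The locus was thus later in MEFs than in either B cell map over the whole length of that domain.

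The annotation placed 108 kappa segments in the region, and 38 of them started in bins that were E in CH12 cells and L in MEFs. Another 55 were M in CH12 cells and L in MEFs, 14 were M in both, and 1 was L in CH12 cells and M in MEFs. The joining segments Igkj1 to Igkj5 and the constant gene Igkc were among those M in both, and were E in primary B cells. The joining and constant part of the locus thus did not differ between CH12 cells and MEFs. All 38 of the fully switched segments were M in primary B cells. Variable segments of this locus are known to carry an octamer in their promoters, the site of the B cell factors OCT2 and OBF1. The letters ATGCAAAT, read on either strand, occurred in the 250 bases before the start of 30 of the 38 switched segments (78.9%) and of 24 of the 55 that were M in CH12 cells and L in MEFs (43.6%). They occurred before the start of 349 of 21413 autosomal protein-coding genes (1.63%), and before 18 of the 452 genes that were L in CH12 cells and E in MEFs (3.98%). Segments are related copies and not independent, and a match is no evidence that the site is bound. The first 2 switched segments with a match in the longest run, by position, are shown here because they show what kind of sequence leads this direction. Both are 250 bases of the NCBIM37 (mm9) reference read 5′ to 3′ on the minus strand, at chr6:68654973-68655222 for Igkv10-94 and chr6:68686759-68687008 for Igkv19-93, with the octamer in capitals. It began 93 and 98 bases before the annotated start.
Igkv10-94: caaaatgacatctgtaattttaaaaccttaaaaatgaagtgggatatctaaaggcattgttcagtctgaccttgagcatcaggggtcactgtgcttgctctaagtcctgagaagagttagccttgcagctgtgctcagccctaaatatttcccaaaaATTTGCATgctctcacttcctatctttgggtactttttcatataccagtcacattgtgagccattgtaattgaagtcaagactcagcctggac
Igkv19-93: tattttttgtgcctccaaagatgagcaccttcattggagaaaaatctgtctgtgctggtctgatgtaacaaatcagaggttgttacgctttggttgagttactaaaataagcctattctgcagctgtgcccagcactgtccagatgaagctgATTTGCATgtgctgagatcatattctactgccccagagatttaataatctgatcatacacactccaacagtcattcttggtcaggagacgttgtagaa

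At the other antigen receptor loci no named segment was E in CH12 cells and L in MEFs. Of 39 segments whose symbols begin with Igh, the heavy chain locus on chromosome 12, 2 were E, 8 M and 29 L in CH12 cells and 2 were E, 4 M and 33 L in MEFs. The 39 named Trb segments of the T cell receptor beta locus were L in both maps. The 51 named Tra segments went the other way, with 6 E, 9 M and 36 L in CH12 cells and 6 E, 45 M and 0 L in MEFs.

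The remaining long runs in this direction held few genes. The third longest of the 14, chr11:24020001-24360000 (340 kb), overlapped Bcl11a, a zinc finger transcription factor needed for B cell development. The start of Bcl11a, outside the run, was E in CH12 cells, M in MEFs and E in primary B cells, and all 17 bins of the run were E in primary B cells. It lay within a longer stretch, chr11:23340001-24580000 (1240 kb), where every bin was in an earlier state in CH12 cells, with 51 E and 11 M bins against 34 M and 28 L in MEFs. That stretch held 10 protein-coding genes. The fourth run, chr1:85000001-85320000 (320 kb), held C130026I21Rik and A530032D15Rik, and the sixth, chr1:87340001-87560000 (220 kb), held Sp110, Sp140 and Sp100, nuclear body genes induced by interferon. The fifth, chr10:50700001-51020000 (320 kb), overlapped Sim1, a regulator of hypothalamic neurons, and was M in all 16 bins in primary B cells. Of the 14 runs, 3 overlapped no protein-coding gene.

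The reverse runs, late in CH12 cells and early in MEFs, had 5.87 protein-coding gene starts per Mb. The second longest, chr1:164840001-165960000 (1120 kb, 56 bins), contained Prrx1, a homeobox factor of limb and craniofacial mesenchyme, with Gorab, Mettl11b, Kifap3 and Scyl3. It was a whole CH12 L domain inside a MEF E domain of 3640 kb. Primary B cells had 7 E, 18 M and 31 L bins there. The longest run, chr4:97900001-99080000 (1180 kb, 59 bins), was a whole MEF E domain within a CH12 L domain of 3920 kb and was M in all its bins in primary B cells. Among its genes was Usp1, a deubiquitinase of DNA repair. The third, chr4:55500001-56620000 (1120 kb), overlapped a single protein-coding gene, Klf4, a zinc finger factor of epithelia and pluripotent cells. The fourth, chr15:6180001-7240000 (1060 kb), held Osmr and Lifr, receptors of the interleukin 6 family, with Rictor, Dab2, C9, Fyb and Egflam. The fifth, chr3:144500001-145460000 (960 kb), held Clca3, Clca4, Clca5 and Clca6, calcium-activated chloride channel regulators, together with Col24a1 and Cyr61, a matricellular protein. A further run of 840 kb, chr1:45200001-46040000, spanned the fibrillar collagen genes Col3a1 and Col5a2. It was a whole MEF E domain within a CH12 L domain of 7700 kb, and primary B cells had 4 M and 38 L bins there.

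The sequences before the start of Prrx1 and of Col3a1 are shown because these members of the gene lists below lay in the longest switched runs, and because their base composition differed. Each is 250 bases of NCBIM37 (mm9), read 5′ to 3′ on the strand of the gene, with CpG dinucleotides in capitals. Both windows also hold the octamer letters, in lower case here. Prrx1 lies on the minus strand and the window is chr1:165243842-165244091. Col3a1 lies on the plus strand and the window is chr1:45368133-45368382.
Prrx1: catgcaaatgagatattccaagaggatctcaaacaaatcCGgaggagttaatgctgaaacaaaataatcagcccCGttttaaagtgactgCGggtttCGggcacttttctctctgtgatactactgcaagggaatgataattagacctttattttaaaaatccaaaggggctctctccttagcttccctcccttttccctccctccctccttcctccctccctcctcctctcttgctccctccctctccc
Col3a1: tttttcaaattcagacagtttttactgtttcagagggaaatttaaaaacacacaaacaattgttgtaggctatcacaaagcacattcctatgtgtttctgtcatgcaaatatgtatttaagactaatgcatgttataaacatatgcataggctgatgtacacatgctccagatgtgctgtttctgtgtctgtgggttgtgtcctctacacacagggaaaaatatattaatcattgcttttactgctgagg

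The Prrx1 window had 4 CpGs and 46.8% GC, and the Col3a1 window had 0 CpGs and 35.2% GC. Over all protein-coding starts 47.6% had 10 or more CpGs in this window. The share was 59.4% for genes early in both maps and 12.4% for genes late in both. Of 452 genes that were L in CH12 cells and E in MEFs 215 (47.6%) had 10 or more, so their promoters stood nearer to those of all genes than to those of genes late in both maps. Of the 13 genes that were E in CH12 cells and L in MEFs, 1 (7.69%) had 10 or more.

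**Figure D4:**
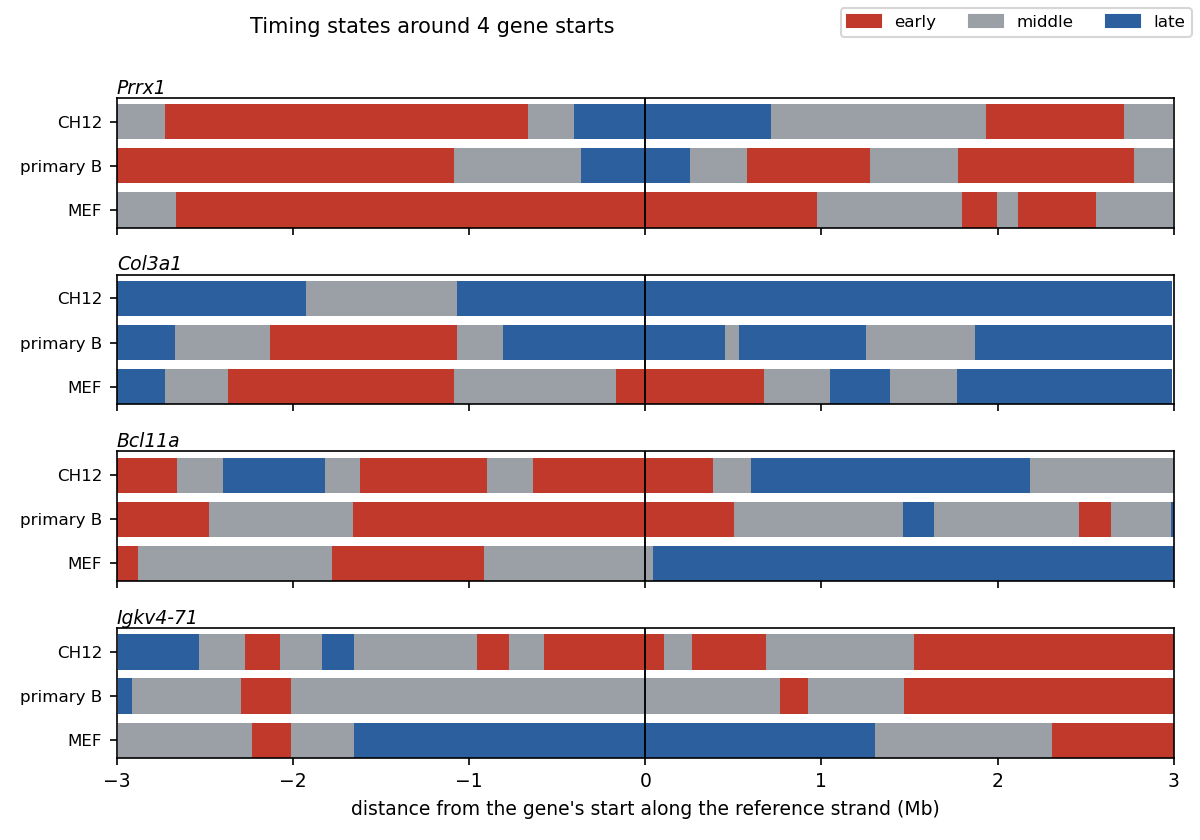
Timing states of the 20 kb bins within 3 Mb of the starts of Prrx1, Col3a1, Bcl11a and Igkv4-71 in CH12 cells, WT primary B cells and MEFs, by distance along the reference strand. The starts of Prrx1 and Col3a1 were late in both B cell maps and early in MEFs, whereas the kappa segment Igkv4-71 was early in CH12 cells, middle in primary B cells and late in MEFs.

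Switched runs seldom lay at matched places in both maps. Of the 236 runs late in CH12 cells, 64 covered at least 50% of a MEF E domain and 67 at least 50% of a CH12 L domain, and 13 did both. In 40 of them the run lay at least 100 kb inside the CH12 L domain. Of the 14 runs in the other direction, 0 covered 50% of a MEF L domain and 8 covered 50% of a CH12 E domain. Chromosome 3 held the most L-to-E bins, 435, or 5.56% of its bins, and chromosome 12 the fewest, 31, or 0.527%.

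When domains were matched as whole units, E domains corresponded to each other more often than L domains from the CH12 side. With 50% reciprocal overlap, 223 of 537 CH12 E domains (41.5%, 37.4 to 45.7) had a MEF partner, which is 39.3% of the 567 MEF E domains. For L domains the count was 198, or 28.7% (25.4 to 32.2) of CH12 domains and 43.0% (38.5 to 47.5) of MEF domains. Of the 461 MEF L domains, 310 lay wholly in CH12 L chromatin and 9 contained no CH12 L bin. Of the 567 MEF E domains, 43 lay wholly in CH12 L chromatin and 189 contained no CH12 E bin. Conversely 238 of 537 CH12 E domains lay wholly in MEF E chromatin and 6 lay wholly in MEF L chromatin.

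Edges were matched separately, by a criterion that cannot be set against that for domains. Of 1069 E domain edges in CH12 cells, 288 (26.9%, 24.4 to 29.7) had a MEF edge on the same side within 100 kb, and of 1380 L domain edges, 186 (13.5%, 11.8 to 15.4). From the MEF side, 25.5% of 1130 E edges and 20.2% of 921 L edges matched. The median distance from a CH12 edge to the nearest MEF edge of the same kind was 340 kb for E domains and 950 kb for L domains. From MEF edges to CH12 edges it was 400 kb and 380 kb, so the wide gap between E and L held only from the CH12 side. Among the 288 matched E edges, the MEF domain reached further out at 150, less far at 120 and to the same bin at 18. Among the 186 matched L edges the MEF domain reached further at 54 and less far at 109, and the median shift was a single 20 kb bin.

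Genes were placed by the state of the bin that held their annotated start. Of 21418 autosomal protein-coding genes, 70.7% had the same state in both maps. Another 5018 were in an earlier state in MEFs (23.4%) and 1258 in an earlier state in CH12 cells (5.87%). Here too the state totals require a net shift toward earlier in MEFs. E gene starts made up 61.1% in MEFs and 51.8% in CH12 cells, and L gene starts 11.0% and 21.3%. Complete switches were found for 452 genes that were L in CH12 cells and E in MEFs (2.11%) and for 13 that were E in CH12 cells and L in MEFs (0.0607%). When all 34653 annotated genes were counted in place of the protein-coding ones, these became 786 and 78. The 13 were Sp110, Sp140, Sp100, Ostn, Uts2d, Bend5, C130026I21Rik, 2 models named A530032D15Rik, the kappa segments Igkv4-71 and Igkv4-69 and the kappa region models Gm11145 and Gm11143. They came from few runs and are not independent. The gene lists and families that follow were chosen with earlier results of these data known, so they are to be read against these shares over all genes, and none was tested. Where a small group is given in full, members outside the naming rule were named after their values were seen.

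Among the 7 lists, fibroblast matrix genes had the highest share in an earlier state in MEFs, followed closely by mesenchymal genes. Of 31 genes, 21 (67.7%) were in an earlier state in MEFs, against 23.4% of all genes, 9 had the same state and 1, the stromelysin Mmp3, was E in CH12 cells and M in MEFs. In MEFs 25 of the 31 (80.6%, against 61.1% of all genes) were E and 0 were L, against 11.0% of all genes. In CH12 cells 8 (25.8%, against 51.8%) were E, 14 M and 9 (29.0%, against 21.3%) L. Complete L-to-E switches were found at 6 (19.4%, against 2.11% of all genes). These were Col1a2, Col3a1 and Col5a2, which encode fibrillar collagens, Fn1 for fibronectin, Postn for periostin and Lox for the collagen cross-linking enzyme lysyl oxidase. Their runs measured 500 kb for Col1a2, 840 kb for Col3a1 and Col5a2 together, 420 kb for Fn1, 260 kb for Postn and 700 kb for Lox. In primary B cells Col3a1, Col5a2 and Postn were L and Col1a2, Fn1 and Lox were M. Col5a1, Col6a1, Col6a2 and Col6a3, further collagens, were M in CH12 cells and E in MEFs, whereas Col1a1, the partner of Col1a2 in type I collagen, was E in both maps and Col12a1 was M in both.

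Mesenchymal regulators and receptors went in the same direction, mostly by a single step. Of 40 genes, 26 (65%, against 23.4% of all genes) were in an earlier state in MEFs and 11 had the same state. The 3 in an earlier state in CH12 cells (7.50%, against 5.87%) were Foxc1, Runx2 and Zeb2, each E in CH12 cells and M in MEFs. In CH12 cells 15 (37.5%, against 21.3% of all genes) were L, and in MEFs 0 were, against 11.0% of all genes. The commonest change was from L in CH12 cells to M in MEFs, at 13 genes, and 11 went from M to E. Prrx1 and Ccl2, a monocyte chemoattractant, were the 2 complete switches, against 2.11% of all genes. Bmp4, a signalling ligand of the TGF-beta family, and Cdh11 and Cdh2, which encode mesenchymal and neural cadherins, were L in CH12 cells and M in MEFs, and Cav1, the caveolin of plasma membrane pits, was M in CH12 cells and E in MEFs.

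Genes of the B cell lineage were early in both maps for the most part. Of 22 B cell lineage transcription factors, 17 (77.3%, against 51.8% of all genes) were E in CH12 cells and 16 (72.7%, against 61.1%) in MEFs, 12 of them in both, and all 22 were E in primary B cells. The members in an earlier state in CH12 cells numbered 5 (22.7%, against 5.87% of all genes), all E in CH12 cells and M in MEFs. They were Bcl11a, Ikzf1, a zinc finger factor of lymphoid progenitors, Myb, Pax5, which fixes B cell identity, and Prdm1, which drives plasma cell formation. Another 4 were in an earlier state in MEFs. Ebf1, a factor that specifies the B lineage, Foxo1 and Runx1 were M in CH12 cells and E in MEFs. Bcl6, a repressor required for germinal centre B cells, was L in CH12 cells, E in MEFs and E in primary B cells. It lay in an L-to-E run of 820 kb that was E in 40 of 41 bins in primary B cells, and there the B lymphoma line was later than both other maps.

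The B cell receptor and surface genes gave a like picture. Of 32 genes, 25 (78.1%, against 51.8% of all genes) were E in CH12 cells, 22 (68.8%, against 61.1%) in MEFs and all 32 in primary B cells. The 8 in an earlier state in CH12 cells (25.0%, against 5.87% of all genes) included Blnk, an adaptor of the B cell receptor, and Cd24a, a surface glycoprotein of developing B cells, and 1 of them, the tetraspanin gene Cd53, was M in CH12 cells and L in MEFs. Blk, Cd180 and Plcg2 were in an earlier state in MEFs, each M in CH12 cells and E in MEFs. No gene of this list made a complete switch.

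Among 26 T cell identity genes 19 had the same state, 5 (19.2%, near the 23.4% of all genes) were in an earlier state in MEFs and 2, the neighbouring Cd8a and Cd8b1 for the CD8 co-receptor, were E in CH12 cells and M in MEFs. Bcl11b, a factor that fixes T cell identity, was M in CH12 cells and E in MEFs, and Cd2, an adhesion receptor of T cells, was L and M. Rag1 and Rag2, neighbouring genes for the recombinase that joins antigen receptor segments, were L in CH12 cells and E in MEFs. They shared a run of 580 kb that was E in all 29 bins in primary B cells. Lineage regulators of tissues that are neither blood nor fibroblast were in an earlier state in MEFs at 12 of 30 (40.0%, against 23.4% of all genes), with the same state at 16. Alb and Afp, neighbouring genes for serum albumin and its fetal relative, were M in CH12 cells and E in MEFs, and Foxa2, a factor of the endoderm, was L and M. Among the lists, genes of replication initiation differed least. Of 30 genes, 24 had the same state, against 70.7% of all genes, and the exceptions were Mcm6, a helicase subunit, E in CH12 cells and M in MEFs, Orc4 of the origin recognition complex, L in CH12 cells and M in MEFs, and Cdc7, Gins4, Topbp1 and Rif1, M in CH12 cells and E in MEFs.

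**Figure D5:**
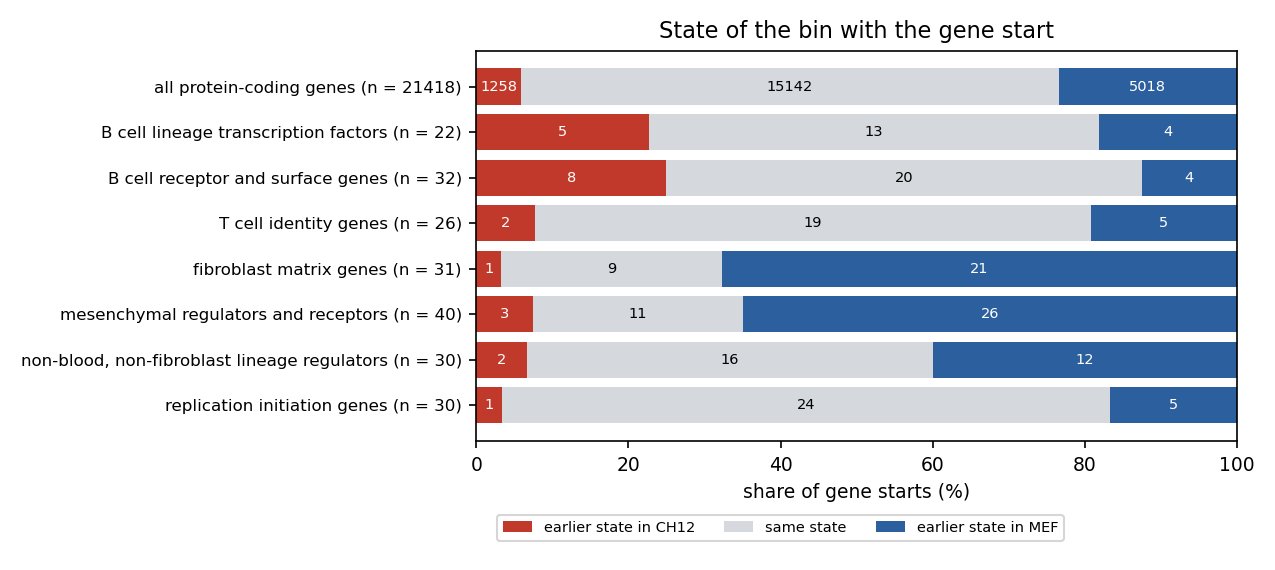
Share of gene starts in each list that lay in an earlier state in CH12 cells, in the same state, or in an earlier state in MEFs, with the number of genes written in each bar. Over all 21418 protein-coding genes 5018 were earlier in MEFs and 1258 in CH12 cells, whereas 21 of 31 fibroblast matrix genes and 26 of 40 mesenchymal genes were earlier in MEFs.

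Gene families, found by their symbols, were described in the same way, with examples named after their values were seen. Of 41 collagen genes, 25 (61.0%, against 23.4% of all genes) were in an earlier state in MEFs, 16 had the same state and 0 were earlier in CH12 cells. The 6 complete switches (14.6%, against 2.11%) were Col1a2, Col3a1 and Col5a2 with Col4a3 and Col4a4, a head-to-head pair for basement membrane chains, and Col24a1. Of 53 genes for chemokines and their receptors, 15 (28.3%, against 23.4% of all genes) were in an earlier state in MEFs and 9 (16.98%, against 5.87%) in an earlier state in CH12 cells, all 9 of them E in CH12 cells and M in MEFs. Complete switches numbered 8 (15.1%, against 2.11%), all L in CH12 cells and E in MEFs. They were Ccl2, Ccl7, Ccl8, Ccl11 and Ccl12, 5 neighbours in 1 run of 480 kb on chromosome 11 that was M throughout in primary B cells, Cxcl1 and Cxcl2, and Ccl20. Hox genes, which set position along the body axis, were E in MEFs at all 40, against 61.1% of all genes. In CH12 cells 22.5% were E, against 51.8% of all genes, and 31 of the 40 were M. The 31 were the whole Hoxa, Hoxb and Hoxd clusters, and the 9 Hoxc genes were E in both maps. In primary B cells Hoxa and Hoxb were E and Hoxd was M.

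The large clustered receptor families were seldom early in either map. Over all genes, 21.3% were L in CH12 cells and 11.0% in MEFs. Of 1081 olfactory receptor genes 776 (71.8%) were L in CH12 cells and 691 (63.9%) in MEFs, and 874 (80.9%, against 70.7% of all genes) had the same state. Of 327 vomeronasal receptor genes 251 (76.8%) were L in CH12 cells and 177 (54.1%) in MEFs. Another count, 85 (26.0%) in an earlier state in MEFs, was near the 23.4% of all genes. Of 34 protocadherin genes, 28 (82.4%) were L in CH12 cells and 26 were M in MEFs, and 22 (64.7%, against 23.4% of all genes) were in an earlier state in MEFs. Killer cell lectin-like receptors, surface receptors of natural killer cells, went the other way. Of 28, 8 (28.6%, against 51.8% of all genes) were E in CH12 cells and 1 (3.57%, against 61.1%) in MEFs. The same state was found at 19. In an earlier state in CH12 cells were 7 (25.0%, against 5.87%), and in MEFs 2 (7.14%, against 23.4%). Klrb1a, Klrb1b, Klrb1c and Klrb1f lay in 1 stretch, chr6:128520001-129500000, E throughout in CH12 cells and M in MEFs, so members are not independent.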

How the data were processed

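Per the labels and the study's methods, BrdU-labelled DNA from sorted early and late S phase cells was sequenced, and the authors trimmed reads (Trim Galore 0.6.5), aligned them to mm9 (BWA 0.7.17), kept unique alignments (SAMtools 1.9), merged the 2 CH12 shLacZ replicates, removed duplicates, computed log2 early over late ratios in 20 kb windows with deepTools, smoothed them by loess over 300 kb and called 3 states with a hidden Markov model. Depth is unknown, since the state maps hold no counts. The deposited values are state numbers, with no unit of their own: CH12 and primary B cells use 2 for E, 1 for M and 0 for L. The MEF numbers carry no names, and 0 was taken as E, 2 as M and 1 as L, because only 2 then lies between the others and gene density then falls from E to L. Among the 6 possible orders this gave the highest agreement with CH12 cells (62.0%, kappa 0.439), and the order used in CH12 cells would give 8.49% and -0.37. The naming used gene density, contacts and nothing from the CH12 map. The browser colours follow the state number in all 3 maps and name no state.

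States were painted onto 20 kb bins with Python 3.11.15, pandas 2.3.3 and numpy 2.4.6, and drawn with matplotlib 3.10.9. Gene starts, base composition and sequences came from NCBIM37 with GENCODE M1, the same build as mm9. Of listed genes, 1 (Bgn) lay on no autosome, and 3 were matched through RefSeq synonyms. Code was tested on simulated maps. Genes named in the text were, by rule and apart from those said to be named after their values were seen, those of the 5 longest runs each way, completely switched list members and up to 4 more of each list in alphabetical order. Some results are not reported here. The stretches earlier by any step, the kappa segments, the octamer and the Hox clusters were added after values were seen. Members, lists and families were chosen with earlier results of these data known. Alternatives tried were unknown bins kept, the first 3 Mb or domains under 100 kb left out, bins near boundaries left out, longer or joined runs, other overlaps and edge distances, gene bodies and all annotated genes.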

Additional observations from a re-analysis of the deposited data

How the results depend on the processing

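No paired analysis was possible because each side is 1 merged map and no result comes from a test. Of 76 values of 26 results recomputed under an alternative, 38 stayed within the counting interval or within 1.5 times and 38 did not, and 0 changed direction. Without each chromosome's first 3 Mb no value changed, since those bases are unknown. With wholly unknown bins kept, E, M and L made up 23.7%, 27.6% and 48.7% of the CH12 map and 32.8%, 38.7% and 28.5% of the MEF map, agreement was 62.8%, and 85.3% of discordant bins were earlier in MEFs. Without bins within 100 kb of a boundary, agreement was 68.5%, 89.6% of discordant bins were earlier in MEFs, and 6 runs with 55 bins were E in CH12 cells and L in MEFs and 140 with 1975 the reverse. Runs of at least 300 kb numbered 5 (104 bins, median 340 kb) and 105 (median 500 kb). At 80% reciprocal overlap, 16.9% of CH12 and 16.0% of MEF E domains and 9.28% and 13.9% of L domains matched, and with any overlap 83.4%, 66.7%, 55.7% and 98.05%. Within 40 kb, 11.97% of CH12 and 11.3% of MEF E edges and 6.59% and 9.88% of L edges matched, and within 200 kb 41.4%, 39.3%, 23.0% and 34.4%. Over all annotated genes, 68.5% of starts had the same state, 78 were E in CH12 cells and L in MEFs and 786 the reverse. The causes were not tested, beyond the fewer bins or runs, or the looser or stricter match, that each alternative itself makes.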

Other observations

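Longer stretches appeared when every bin in an earlier state in the same map, by 1 step or by both, was joined to its neighbours, a description added after the switched runs had been seen. The stretches earlier in MEFs had a median length of 280 kb and those earlier in CH12 cells of 160 kb. The longest stretch earlier in MEFs was chr15:38700001-44640000 (5940 kb, 24 genes), with 14 M and 283 L bins in CH12 cells and 31 E and 266 M bins in MEFs. The second, chr3:52460001-58240000 (5780 kb, 33 genes), included Postn and had 90 M and 199 L bins in CH12 cells and 193 E and 96 M bins in MEFs. The third, chr9:83140001-87980000 (4840 kb, 30 genes), was L in all 242 bins in CH12 cells, with 13 E and 229 M bins in MEFs. The fourth, chr10:8960001-13740000 (4780 kb, 24 genes), had 62 M and 177 L bins in CH12 cells and 68 E and 171 M bins in MEFs.

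After the kappa locus, the longest stretch earlier in CH12 cells was chr10:42840001-44600000 (1760 kb, 88 bins), E throughout in CH12 cells and in primary B cells and M throughout in MEFs. Its 15 genes included Prdm1 and Cd24a, members of the B cell lists. The fourth, chr1:36940001-37960000 (1020 kb, 51 bins), was likewise E in both B cell maps and M in MEFs, and the sixth, chr2:176380001-177400000 (1020 kb), was M in CH12 cells and L in MEFs over 15 predicted genes. None of these stretches has a replicate check.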
